A study of Mus musculus with 24 samples.

Results

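The genes described here are 10 effector genes of cytotoxic lymphocytes: 5 granzymes (Gzma, Gzmb, Gzmc, Gzmk and Gzmm), perforin (Prf1), the death ligand Fasl, the granule proteins Nkg7 and Ctsw, and the inhibitor Serpinb9. They were chosen by name for their function and not by a rule on their values, though earlier results of these data were known. By symbol, each was found among the 55335 genes of the count table. All 10 were also among the 15953 genes with enough counts to be tested. RNA was measured by sequencing in invariant natural killer T (iNKT) cells, T lymphocytes with a nearly fixed receptor for lipids shown on CD1d, taken from mesenteric lymph nodes (mLN) of C57BL/6J mice. One set of mice descended from dams colonised with feces of wild-type donors (WT FT, where FT is fecal transplant), and the other from dams colonised with feces of CD1d-knockout donors (KO FT). Mice of both sexes received 2 µg of alpha-galactosylceramide (aGC), a glycolipid that activates iNKT cells, in 200 µL PBS by oral gavage, or 200 µL PBS alone, and cells were sorted 24 h later. This gave 8 groups of 3 libraries, 24 in all: PBS and aGC, female and male, in WT FT and in KO FT. All mice carried the same host background as far as the labels say, and the knockout was in the fecal donors and not in the mice studied. Donor and dam, litter or cage cannot be told apart. Column names of the counts carry a different suffix for WT FT and KO FT, whose meaning is not given. Anything this suffix marks cannot be told apart from the transplant either. The labels leave unstated whether a group's 3 libraries derive from different mice, so the p-values reflect only how much these libraries vary, and part or all of that variation may be technical.

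Cytotoxic lymphocytes kill by releasing granules or by engaging death receptors. In granule killing, perforin makes pores in the target membrane and the granzymes, serine proteases stored with it on a proteoglycan core, enter and cleave their substrates. Granzyme B activates caspases and Bid, granzyme A acts without caspases, and the killer cell protects itself with Serpinb9, which inhibits granzyme B. Fas ligand on the cell surface instead triggers the receptor Fas and caspase-8. Activated iNKT cells are best known for fast cytokine release, and some of them can also kill by both routes.

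The RefSeq promoter sequences of 3 members are printed because these genes showed 3 different responses to aGC: a rise (Gzmb), a fall in 3 of 4 settings (Prf1) and opposite changes in the sexes (Fasl). Each is the 250 bases before the annotated start on GRCm38.p6, read 5′ to 3′ on the strand of the gene. Capitals mark matches, on either strand, to a RUNX core (TGTGGT), a T-box site (GTGTGA), an NFAT core (GGAAA) or an AP-1 site (TGANTCA), and no match shown overlaps another.
Gzmb, chr14:56262335-56262584, minus strand: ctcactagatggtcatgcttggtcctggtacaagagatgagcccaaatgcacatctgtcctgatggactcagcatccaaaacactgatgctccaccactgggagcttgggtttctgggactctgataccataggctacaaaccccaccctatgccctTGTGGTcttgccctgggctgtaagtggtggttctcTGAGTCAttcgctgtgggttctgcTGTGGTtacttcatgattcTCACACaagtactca
Prf1, chr10:61297586-61297835, plus strand: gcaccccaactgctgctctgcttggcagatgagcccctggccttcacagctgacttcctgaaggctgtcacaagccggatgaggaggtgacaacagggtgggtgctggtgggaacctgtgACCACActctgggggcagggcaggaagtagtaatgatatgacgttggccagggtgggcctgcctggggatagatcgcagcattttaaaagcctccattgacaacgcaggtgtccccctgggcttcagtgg
Fasl, chr1:161788496-161788745, minus strand: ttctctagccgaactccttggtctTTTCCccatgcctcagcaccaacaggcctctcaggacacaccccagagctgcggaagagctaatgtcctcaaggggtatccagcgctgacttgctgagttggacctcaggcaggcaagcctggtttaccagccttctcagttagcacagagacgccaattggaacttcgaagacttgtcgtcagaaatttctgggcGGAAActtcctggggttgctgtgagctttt
Positions are counted back from the start, with the base before it as -1, and give the leftmost base of a match as printed. The Gzmb window held RUNX core matches at -93 and -34, an AP-1 match at -58 and a T-box match at -15. The Prf1 window held 1 RUNX core match, at -130, and the Fasl window held NFAT core matches at -226 and -30. Among 32851 RefSeq promoters of the same length 14.05% held the RUNX core, 12.29% the T-box site, 55.57% the NFAT core and 6.75% the AP-1 site. A match is a string of letters and shows no binding. Of the 10 members 9 had a RefSeq promoter, all except Ctsw.

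Libraries held 9764931 to 37016768 estimated counts and 20765 to 26506 detected genes, and mitochondrial genes took 0.148 to 0.373% of counts. That share moved with aGC in WT FT females, from 0.357 to 0.373% after PBS to 0.148 to 0.163% after aGC, and overlapped between treatments in the other 3 combinations. The TMM scaling factors were 0.914 to 0.946 in the 6 WT FT aGC libraries and 0.997 to 1.06 in the other 18. The part of either in the aGC results was not tested. The 10 members took 0.229 to 0.338%. A count of 3, the limit that a count of 0 allows, stood for 0.0801 to 0.302 CPM, the count scaled by the size of its library, counting error only. Xist lay between 7.99 and 48.3 CPM in the 12 female libraries and between 0 and 0.668 in the 12 male ones, so the sexes matched their labels. The 7 iNKT markers (Trav11, Traj18, Zbtb16, Cd3e, Cd3g, Trac and Cd4) were all detected in every group, with summed levels of 3883 to 7103 CPM. Cd3e, Cd3g, Trac and Cd4 are also expressed by other T cells, so this sum does not measure iNKT cells alone. Both CD8 co-receptor genes, Cd8a and Cd8b1, which mark conventional CD8 T cells and are absent from most mouse iNKT cells, differed strongly between groups. Their sum was 15.7 to 16.9 CPM in WT FT PBS females, 854 to 863 in WT FT PBS males, 631 to 640 in WT FT aGC females and 17.3 to 19.8 in WT FT aGC males. In KO FT it was 15.9 to 16.7, 393 to 396, 494 to 523 and 14.1 to 14.5 in the same order of groups. CD8 genes were thus high in PBS males and aGC females of both transplants. The summed level of 7 markers of naive and recirculating T cells, all detected, moved the same way, with 2627 to 3498 CPM in those 4 groups and 1327 to 1741 in the other 4. Any comparison of aGC with PBS within a sex therefore also compares libraries with high and low CD8 signal, in opposite directions in the sexes. In bulk RNA, more cells of a type and more RNA per cell cannot be told apart.

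Of the granzymes, Gzmb (granzyme B, chr14:56258838-56262260, minus strand, GRCm38/mm10) showed the largest rise with aGC, in WT FT males. Gzmb stood at 6.27, 6.84 and 6.50 CPM in the WT FT PBS females and at 7.78, 8.48 and 8.38 in the aGC females. In WT FT males it went from 1.34, 1.11 and 1.57 CPM after PBS to 26.8, 29.1 and 22.7 after aGC. The aGC libraries lay above the PBS libraries in both sexes, and the WT FT aGC males stood above all other groups. In KO FT females Gzmb was 10.4, 10.6 and 8.75 CPM after PBS and 12.2, 12.8 and 12.1 after aGC. In KO FT males it was 2.25, 1.15 and 0.711 CPM after PBS and 6.83, 6.26 and 6.34 after aGC. The ranges did not overlap within either sex of KO FT. Averaged over the sexes, Gzmb rose by 2.30 ± 0.14 (log2, SE; 4.93-fold, adjusted p = 3.54e-13) in WT FT and by 1.29 ± 0.14 (2.44-fold, adjusted p = 3.25e-08) in KO FT. The rise passed the test in males, at 19.4-fold in WT FT and 4.78-fold in KO FT. In females the differences of 0.33 (95% interval -0.04 to 0.70, adjusted p = 0.118) and 0.32 (-0.04 to 0.68, adjusted p = 0.125) did not pass, although no libraries overlapped. When aGC males were set against PBS females, both low in CD8 genes, Gzmb was higher with aGC in WT FT (2.00 ± 0.18, adjusted p = 7.02e-10) but lower in KO FT (-0.61 ± 0.18, adjusted p = 0.00656). When aGC females were set against PBS males, both high in CD8 genes, Gzmb was higher by 2.60 ± 0.21 in WT FT and 3.19 ± 0.22 in KO FT. In these comparisons between opposite sexes, sex and treatment cannot be told apart.

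Gzma (granzyme A, chr13:113093825-113100981, minus strand) was expressed at a few CPM. It was 3.12, 2.01 and 2.30 CPM in WT FT PBS females, 1.52, 0.831 and 1.34 in PBS males, 3.26, 3.24 and 2.99 in aGC females and 3.10, 2.13 and 3.97 in aGC males. In KO FT it was 2.84, 2.32 and 2.82 CPM in PBS females, 0.310, 0.203 and 0.889 in PBS males, 2.82, 3.14 and 2.63 in aGC females and 1.21, 1.11 and 1.35 in aGC males. Gzma was thus lowest in PBS males of each transplant, and PBS and aGC females overlapped. It rose with aGC in males (1.30 ± 0.33 in WT FT, adjusted p = 0.00126; 1.57 ± 0.40 in KO FT, adjusted p = 0.00228), whereas the differences in females (0.34, 95% interval -0.30 to 0.97, and 0.10, -0.55 to 0.75) did not pass. The averaged rises were 0.82 ± 0.22 (adjusted p = 0.0026) in WT FT and 0.84 ± 0.26 (adjusted p = 0.00761) in KO FT. Without the KO FT PBS male replicate 2, which had 6 Gzma counts, the KO FT value was 0.58 with an adjusted p of 0.0585. With aGC males against PBS females, Gzma differed by 0.29 ± 0.31 in WT FT (adjusted p = 0.443) and by -1.11 ± 0.33 in KO FT (adjusted p = 0.00702), a reversed direction in KO FT. With aGC females against PBS males it was higher with aGC, by 1.35 ± 0.32 and 2.78 ± 0.39.

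Gzmc and Gzmm, rarer granzymes, were highest in WT FT PBS males. Gzmc (chr14:56231441-56234656, minus strand) was 4.38, 4.10 and 3.44 CPM in those libraries and 0.517, 0.600 and 0.441 in the aGC males. In KO FT males it was 2.17, 1.59 and 2.67 CPM after PBS and 0.268, 0.368 and 0.140 after aGC. The male ranges were far apart in both transplants, and the aGC minus PBS change of Gzmc on the log2 scale was -2.91 ± 0.34 (adjusted p = 6.96e-08) in WT FT and -3.06 ± 0.38 (adjusted p = 3.3e-07) in KO FT. Female levels ran from 0.403 to 1.32 CPM. In WT FT females the change of 0.52 did not pass (adjusted p = 0.186), and in KO FT females Gzmc fell by 0.90 ± 0.37 (adjusted p = 0.042), a call lost when any of 8 single libraries was left out (adjusted p up to 0.182, without KO FT PBS female replicate 2). Averaged over the sexes, the Gzmc change was -1.20 ± 0.24 (adjusted p = 0.000106) in WT FT and -1.98 ± 0.26 (adjusted p = 7.66e-07) in KO FT, where all 6 aGC libraries lay below all 6 PBS libraries. In the 4 comparisons between opposite sexes Gzmc ran from -2.09 to -0.49, the last not called (WT FT aGC males against PBS females, adjusted p = 0.251). Gzmc shares 14.81% of its 31-base sequences with 5 other genes, Gzme, Gzmg and Gzmd foremost, so its counts are uncertain, but those 3 granzymes and Gzmf and Gzmn stood at 0 to 2 counts in every library and none was tested.

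Gzmm (granzyme M, chr10:79689020-79695261, plus strand) was 6.92, 5.38 and 5.95 CPM in WT FT PBS males and 1.85, 2.87 and 2.87 in the aGC males, a fall of 1.26 ± 0.31 (adjusted p = 0.00116). In WT FT females it went from 1.49, 1.09 and 1.49 CPM to 1.38, 3.90 and 3.49, and in KO FT females from 0.421, 0.796 and 0.924 to 1.91, 1.96 and 3.00. The KO FT female groups were apart, and 1 WT FT aGC female library lay within the PBS range. Gzmm rose by 1.09 ± 0.33 (adjusted p = 0.00692) in WT FT females and by 1.68 ± 0.36 (adjusted p = 0.000409) in KO FT females. The first of these calls was lost without WT FT aGC female replicate 2 (0.80, adjusted p = 0.069). In KO FT males the levels of 1.69 to 2.54 CPM after PBS and 1.41 to 2.00 after aGC overlapped (-0.38, adjusted p = 0.359). Gzmm thus moved in opposite directions in the sexes of WT FT. WT FT PBS males stood apart at the top, and the 6 groups that followed overlapped with their neighbours, CD8-high and CD8-low groups among them. Between opposite sexes, aGC males exceeded PBS females in both transplants (0.89, adjusted p = 0.0258, and 1.21, adjusted p = 0.00823), whereas aGC females against PBS males gave -1.06 (adjusted p = 0.00502) in WT FT and 0.10 (adjusted p = 0.828) in KO FT.

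Gzmk (granzyme K, chr13:113171608-113225908, minus strand) was found almost only after PBS. The 3 WT FT PBS males held 37, 20 and 36 counts and the 3 KO FT PBS females 32, 13 and 26, while the WT FT PBS females held 4, 3 and 2. The KO FT PBS males, the WT FT aGC groups and the KO FT aGC males held none, and the KO FT aGC females held 1 count in all. Bounds on the fall set the higher group, its counts taken as exact, against the limit that a count of 0 allows over 3 libraries. Counting error in the higher group, which held only 9 counts in WT FT PBS females, could lower these bounds. By this measure Gzmk was at least 21.04-fold lower in WT FT aGC males than in PBS males. It was at least 1.98-fold lower in WT FT aGC females than in PBS females. In KO FT females the ratio of PBS to aGC was 48.3 (95% counting interval 8.40 to 1935, from 71 and 1 counts). Between transplants, Gzmk after PBS was at least 26.8-fold lower in KO FT than in WT FT males, with the higher group again taken as exact. In females it was 9.67-fold higher in KO FT than in WT FT (95% counting interval 4.82 to 22.0). The span of the gene overlaps Esm1 on the opposite strand, and the libraries keep no strand information. Of its 1388 sequences of 31 bases, Gzmk shared 0 with GENCODE M21 transcripts of other genes, on either strand. The annotation behind the counts is not given. Fitted fold changes of Gzmk rest on groups at 0 and are not given, though its calls are within the counts below. The fit gave no usable estimate for Gzmk in the averaged aGC response of KO FT or in KO FT minus WT FT after aGC. The same held for the difference of responses between transplants and between the sexes of WT FT. A missing Gzmk call there does not mean that it was unchanged.

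Perforin (Prf1, chr10:61297833-61304680, plus strand) was lower after aGC in 3 of the 4 combinations of sex and transplant. Prf1 stood at 66.2, 65.6 and 60.6 CPM in WT FT PBS males and at 17.4, 18.7 and 16.5 in the aGC males. In KO FT males it went from 54.9, 62.5 and 61.8 CPM to 26.8, 29.7 and 27.8. Male aGC libraries lay far below all male PBS libraries, with falls of 1.87 ± 0.07 (adjusted p = 2.37e-16) and 1.09 ± 0.07 (adjusted p = 5.49e-12). In KO FT females Prf1 went from 60.9, 62.7 and 61.2 CPM to 46.8, 43.3 and 41.3, a fall of 0.49 ± 0.07 (adjusted p = 1.67e-06). In WT FT females it went from 36.0, 37.1 and 37.8 CPM to 50.0, 51.6 and 49.2, a rise of 0.45 ± 0.07 (adjusted p = 6.02e-06). The WT FT PBS females were the PBS group with little Prf1, and the other 3 PBS groups overlapped between 54.9 and 66.2 CPM. Averaged over the sexes Prf1 fell by 0.71 ± 0.05 (adjusted p = 7.9e-12) in WT FT and by 0.79 ± 0.05 (adjusted p = 1.5e-12) in KO FT. Where the aGC and PBS groups were chosen from opposite sexes, so that both were CD8-low or both CD8-high, Prf1 was lower with aGC each time: -1.07 and -0.35 in WT FT and -1.13 and -0.45 in KO FT.

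Fas ligand (Fasl, chr1:161780689-161788495, minus strand) showed opposite changes in the sexes. In WT FT females Fasl went from 345, 350 and 362 CPM after PBS to 152, 127 and 153 after aGC, and in males from 105, 114 and 132 to 250, 226 and 217. In KO FT females it went from 335, 328 and 254 CPM to 182, 168 and 162, and in males from 136, 162 and 153 to 238, 227 and 184. All 4 pairs of groups were apart, with aGC below PBS in females and above it in males. Fasl fell by 1.29 ± 0.11 (adjusted p = 3.5e-10) and 0.84 ± 0.11 (adjusted p = 4.42e-07) in WT FT and KO FT females. It rose by 0.98 ± 0.11 (adjusted p = 2.58e-08) and 0.53 ± 0.11 (adjusted p = 0.000233) in WT FT and KO FT males. The averaged values, -0.15 (95% interval -0.31 to 0.0013, adjusted p = 0.073) and -0.16 (-0.32 to -0.0033, adjusted p = 0.0747), did not pass. They passed without WT FT PBS male replicate 1 (-0.19, adjusted p = 0.0402) or KO FT PBS female replicate 3 (-0.15, adjusted p = 0.0446) in WT FT, and without KO FT PBS female replicate 3 (-0.22, adjusted p = 0.0104) or KO FT PBS male replicate 1 (-0.195, adjusted p = 0.039) in KO FT. Every library of the 4 groups low in CD8 genes had more Fasl (184 to 362 CPM) than every library of the 4 groups high in them (105 to 182), and the part of CD8-expressing cells in this was not tested. Between CD8-low groups (aGC males against PBS females) Fasl was lower with aGC, by 0.61 ± 0.11 in WT FT and 0.50 ± 0.11 in KO FT on the log2 scale. Between CD8-high groups (aGC females against PBS males) the differences were 0.30 ± 0.11 (adjusted p = 0.019) and 0.18 ± 0.11 (adjusted p = 0.168).

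**Figure D1:**
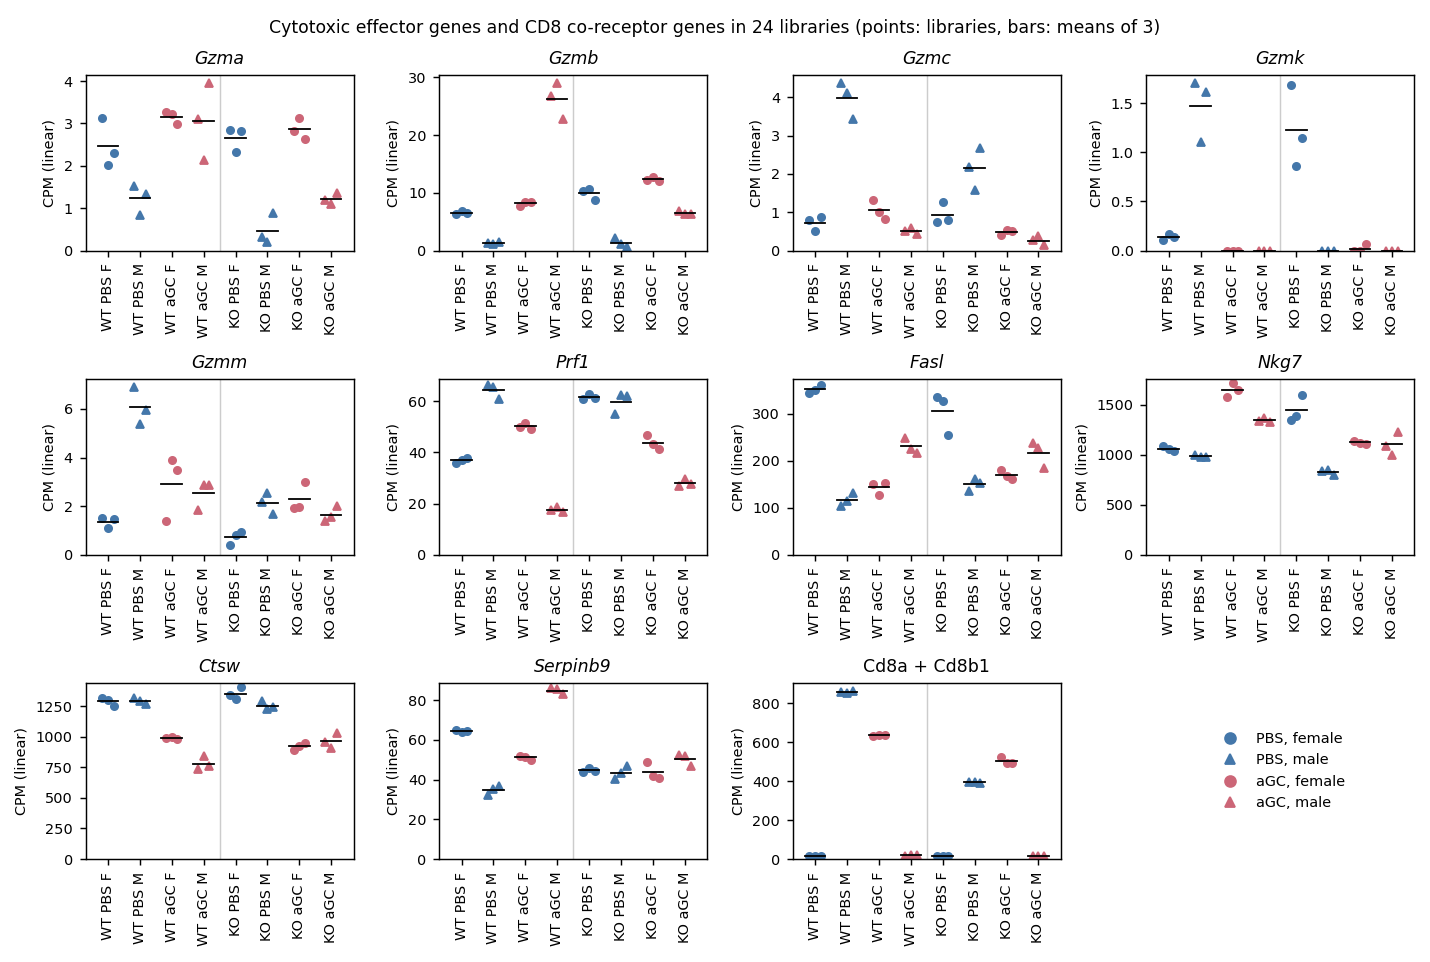
Levels of the 10 genes and the sum of Cd8a and Cd8b1 in each of the 24 libraries (CPM, linear axes from 0), grouped by transplant, treatment and sex, with points for libraries and bars for means of 3. Ctsw lay lower in every aGC group, Gzmb stood out in WT FT aGC males, Fasl was high where the CD8 sum was low, and Gzmk was found almost only in 3 PBS groups.

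Ctsw (cathepsin W, a cysteine protease of cytotoxic lymphocytes, chr19:5465043-5468507, minus strand) fell in all 4 combinations. In WT FT it went from 1317, 1298 and 1247 CPM to 991, 998 and 982 in females and from 1317, 1294 and 1268 to 734, 838 and 757 in males. In KO FT it went from 1343, 1306 and 1405 CPM to 893, 925 and 948 in females and from 1292, 1223 and 1246 to 959, 905 and 1027 in males. Each of the 12 aGC libraries lay below each of the 12 PBS libraries. Averaged over the sexes Ctsw fell by 0.56 ± 0.03 (1.47-fold, adjusted p = 5.82e-13) in WT FT and by 0.47 ± 0.03 (1.38-fold, adjusted p = 3.18e-11) in KO FT. With groups from opposite sexes, both low or both high in CD8 genes, the values ran from -0.73 to -0.39. The CD8-high groups were not alike in their CD8 sums. PBS males against aGC females stood at 854 to 863 against 631 to 640 CPM in WT FT. In KO FT these groups stood at 393 to 396 against 494 to 523 CPM. The summed iNKT markers were also lower after aGC (3883 to 4696 CPM, against 5359 to 7103 after PBS, 7 of 7 detected), as were 7 B cell markers (450 to 721 against 968 to 1074 CPM). Among these B cell genes Pax5 was at 0 in the males. The 7 NK cell markers summed to 225 to 399 CPM after aGC and 345 to 538 after PBS, with Klra8 at 0 in 3 WT FT groups and Ncr1 in 1 of them. Eomes, which is among these 7, went the other way. It rose with aGC by 3.39 ± 0.09 in WT FT and 3.19 ± 0.09 in KO FT on the log2 scale. The part of these lists in the Ctsw result was not tested. The span of Ctsw overlaps Fibp on the opposite strand, and the libraries keep no strand information. Of its 1997 sequences of 31 bases, Ctsw shared 0 with GENCODE M21 transcripts of other genes, on either strand. The annotation behind the counts is not given.

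Nkg7 (a membrane protein of cytotoxic granules, chr7:43437073-43438249, plus strand) rose in 3 of the 4 combinations. In WT FT it went from 1088, 1059 and 1034 CPM to 1578, 1716 and 1650 in females and from 1003, 980 and 979 to 1336, 1374 and 1334 in males. In KO FT females it went from 1351, 1387 and 1603 CPM to 1143, 1122 and 1111, and in males from 835, 850 and 795 to 1088, 995 and 1232. WT FT aGC libraries all lay above WT FT PBS libraries, whereas in KO FT the females and males moved in opposite directions without overlap. Nkg7 rose by 0.64 ± 0.06 (adjusted p = 3.92e-09) in WT FT females, 0.45 ± 0.06 (adjusted p = 7.37e-07) in WT FT males and 0.42 ± 0.06 (adjusted p = 3.6e-06) in KO FT males. It fell by 0.36 ± 0.06 (adjusted p = 2.16e-05) in KO FT females. Averaged over the sexes, Nkg7 rose by 0.54 ± 0.04 (adjusted p = 7.47e-11) in WT FT and differed by 0.03 (95% interval -0.06 to 0.12, adjusted p = 0.604) in KO FT. Between opposite sexes it was 0.35 and 0.74 in WT FT, while in KO FT it was -0.39 for aGC males against PBS females and 0.44 for aGC females against PBS males.

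Serpinb9 (chr13:33003250-33017957, plus strand), the granzyme B inhibitor, responded in WT FT and little in KO FT. In WT FT females it went from 65.1, 63.9 and 64.5 CPM to 51.9, 51.3 and 50.0, and in males from 32.4, 35.2 and 36.8 to 85.9, 85.4 and 82.9. The groups were apart in both sexes, with a fall of 0.34 ± 0.07 (adjusted p = 0.000275) in females and a rise of 1.28 ± 0.07 (adjusted p = 1.68e-13) in males. In KO FT females the levels of 43.9 to 46.0 CPM after PBS and 40.8 to 48.7 after aGC overlapped (-0.04, 95% interval -0.19 to 0.11). In KO FT males they were 40.3, 43.3 and 46.7 CPM after PBS and 52.3, 51.7 and 46.6 after aGC. This was a rise of 0.21 ± 0.07 (adjusted p = 0.0181), which missed the threshold without KO FT PBS male replicate 1 (adjusted p = 0.0985), KO FT aGC male replicate 1 (0.0649) or replicate 2 (0.0567). The averaged values were 0.47 ± 0.05 (adjusted p = 1.22e-08) in WT FT and 0.09 ± 0.05 (adjusted p = 0.155) in KO FT. Between opposite sexes they were 0.39 and 0.55 in WT FT, both called, and 0.17 and 0.0071 in KO FT, neither called. In WT FT males, where Gzmb rose most, its inhibitor rose too. Serpinb9 shares 4.94% of its 31-base sequences with 13 genes, foremost Serpinb9b, whose group means lay between 0 and 1.29 CPM.

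Counted over the members, aGC changed 8 of 10 genes in WT FT (Gzma, Gzmb, Nkg7 and Serpinb9 higher; Gzmc, Gzmk, Prf1 and Ctsw lower), where 68.4% of all tested genes were called. In KO FT it changed 6 of 10 (Gzma, Gzmb and Gzmm higher; Gzmc, Prf1 and Ctsw lower), where 58.1% were called. The Gzmm call in KO FT was lost without any 1 of KO FT PBS female replicate 1, PBS male replicate 3, aGC female replicate 3 or aGC male replicate 3 (0.52 to 0.59, adjusted p 0.0619 to 0.0951). The member medians were -0.12 and -0.07 on the log2 scale, beside -0.11 and -0.03 for all tested genes. By sex, aGC changed 7 of 10 members in WT FT females (58.4% of all genes), 10 of 10 in WT FT males (66.6%), 7 of 10 in KO FT females (56.0%) and 8 of 10 in KO FT males (53.5%). Most tested genes were called in each of these comparisons, so the number of changed members is not a result about them, and the members moved in both directions. When the 3 libraries of each group were summed to 1 profile, so that only differences between groups gave the spread, edgeR called 0 of 10 members in either transplant. Sex entered that fit as 1 shared term, so responses that differed between the sexes counted as spread. At an unadjusted p under 0.05, that fit held 4 members in WT FT (Gzmb, Gzmk, Nkg7 and Ctsw, with the lowest adjusted p at 0.0569 for Ctsw) and 1 in KO FT (Ctsw). It called 1618 and 331 of all genes.

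**Figure D2:**
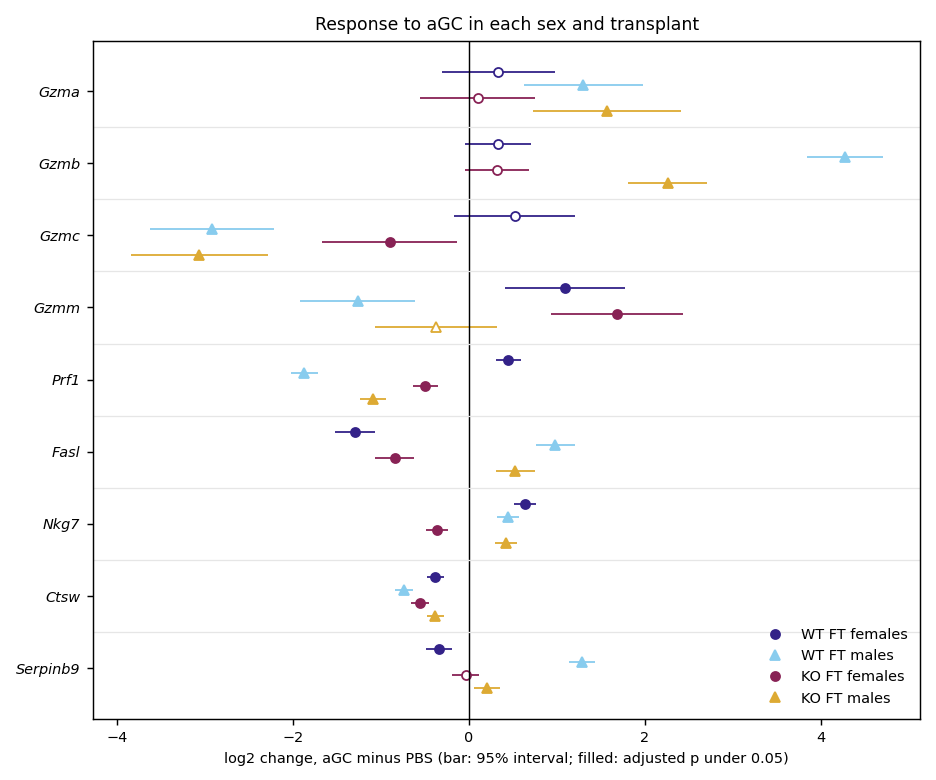
Log2 change from PBS to aGC for 9 members (without Gzmk) in each sex and transplant, with 95% intervals and filled symbols for an adjusted p under 0.05. Ctsw lay below 0 in all 4 combinations, Gzma and Gzmb above 0 in all 4 but called in males alone, and Fasl below 0 in females and above 0 in males.

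The sexes differed in their response. In WT FT the male response differed from the female response for 7 of 10 members, where 47.7% of all genes were called, and in KO FT for 8 of 10, where 46.7% were called. The difference for Gzmb was 3.94 ± 0.27 (adjusted p = 5.71e-11) in WT FT and 1.94 ± 0.28 (adjusted p = 7.52e-06) in KO FT. For Fasl it was 2.28 ± 0.15 (adjusted p = 3.18e-11) and 1.37 ± 0.15 (adjusted p = 1.7e-07), with the male response higher in both. Gzmc, Gzmm and Prf1 had the lower response in males of both transplants, with Gzmc at -3.43 and -2.16, Gzmm at -2.36 and -2.06 and Prf1 at -2.32 and -0.60. In KO FT the difference of Gzma (1.47) lost its call without KO FT PBS male replicate 2 (0.96, adjusted p = 0.132) or replicate 1 (1.33, adjusted p = 0.0573), or without a filter on low counts (adjusted p = 0.0555). The CD8 signal differs between these groups in the same crossed way, and its part in these differences was not tested. The plot of 4 members against the CD8 sum shows which genes followed it.

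**Figure D3:**
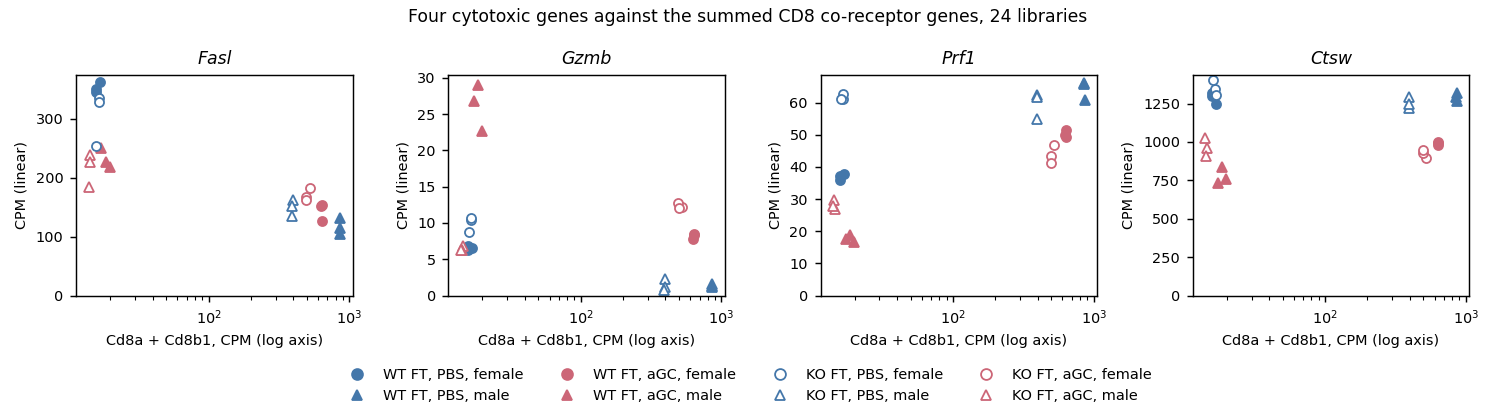
Fasl, Gzmb, Prf1 and Ctsw (CPM, linear) against the sum of Cd8a and Cd8b1 (CPM, log axis) in 24 libraries, with filled symbols for WT FT, open ones for KO FT, circles for females and triangles for males. Fasl was above 182 CPM only in libraries with a CD8 sum of 19.8 CPM or less, whereas Ctsw was split by treatment at both CD8 levels.

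The study asked how the transplant donor shapes these cells. After PBS, 4 of 10 members differed between KO FT and WT FT when averaged over the sexes (Prf1 higher; Gzma, Gzmk and Gzmm lower), where 29.4% of all genes were called. The averaged Gzmk call joins opposite directions, higher in KO FT females and lower in KO FT males, which held no counts. It therefore gives no direction common to the sexes. Prf1 was called in females (0.74) and not in males (-0.10), and Gzma in males (-1.58) and not in females (0.09). Prf1 was higher by 0.32 ± 0.05 (adjusted p = 3.19e-05) and Gzmm differed by -1.21 ± 0.24 (adjusted p = 0.000649). Gzma differed by -0.75 ± 0.25 (adjusted p = 0.0282), a call that did not hold without any 1 of 6 PBS libraries, with -0.49 and an adjusted p of 0.156 without KO FT PBS male replicate 2. After aGC, 7 of 10 differed (Prf1 and Ctsw higher; Gzma, Gzmb, Gzmc, Nkg7 and Serpinb9 lower), where 51.9% of all genes were called. KO FT minus WT FT was -0.71 ± 0.13 for Gzmb (adjusted p = 4.71e-05), -0.42 ± 0.04 for Nkg7 (adjusted p = 2.79e-08) and -0.49 ± 0.05 for Serpinb9 (adjusted p = 2.93e-08). For Gzmb, Prf1 and Ctsw the averaged value joins opposite signs in the sexes. In females and males the differences were 0.59 and -2.01 for Gzmb, -0.20 and 0.68 for Prf1, and -0.10 and 0.31 for Ctsw. The Ctsw difference in females did not pass (adjusted p = 0.088). Ctsw was higher by 0.10 ± 0.03 (adjusted p = 0.0127), and missed the threshold without WT FT aGC male replicate 1 (0.08, adjusted p = 0.068), replicate 3 (0.09, adjusted p = 0.0502) or KO FT aGC male replicate 3 (0.08, adjusted p = 0.0553). With 1 profile per group, edgeR called 0 of 10 members and 0 of all genes in both of these comparisons. At an unadjusted p under 0.05 it held 0 members and 255 and 1306 of the 15953 genes.

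Within a sex the transplants differed in several members. In PBS females 5 of 10 differed (29.8% of all genes), with Prf1 1.67-fold, Gzmb 1.52-fold and Nkg7 1.37-fold higher in KO FT and Serpinb9 at -0.53 ± 0.07 on the log2 scale (adjusted p = 1.1e-05). The CD8 sums of these 2 groups were alike, at 15.7 to 16.9 and 15.9 to 16.7 CPM. In PBS males 7 of 10 differed (42.5%), Gzma, Gzmc, Gzmk, Gzmm and Nkg7 lower and Fasl and Serpinb9 higher in KO FT. The CD8 sums of these groups differed, at 854 to 863 CPM in WT FT and 393 to 396 in KO FT, and the part of CD8-expressing cells was not tested. Without KO FT PBS male replicate 2 the calls of Gzmc (-0.72, adjusted p = 0.0914) and Fasl (0.30, adjusted p = 0.0535) were lost, as they were without WT FT PBS male replicate 1 (adjusted p 0.0542 and 0.0679). In aGC females 5 of 10 differed (43.4%), with Gzmb higher by 0.59 ± 0.18 on the log2 scale (adjusted p = 0.0102) and Gzmc, Prf1, Nkg7 and Serpinb9 lower. Here too the CD8 sums differed, at 631 to 640 and 494 to 523 CPM, and their part was not tested. The count fell to 3 without KO FT aGC female replicate 2 or replicate 3, which ended the calls of Prf1 (-0.20 and -0.17, adjusted p 0.055 and 0.094) and Serpinb9 (-0.20 and -0.19, adjusted p 0.061 and 0.0674). Calls over all genes also moved in fits without 1 library, to 0.756 to 1.053 times the main fit across the comparisons. The Gzmc call was lost without WT FT aGC female replicate 1 (-0.91, adjusted p = 0.0859) or KO FT aGC female replicate 1 (-1.01, adjusted p = 0.0592), with DESeq2 (adjusted p = 0.0549) and without a filter on low counts (adjusted p = 0.203). In aGC males 6 of 10 differed (46.5%), with Gzmb 4.04-fold and Serpinb9 1.69-fold lower and Prf1 1.60-fold higher in KO FT. The CD8 sums of the aGC males were low in both transplants, at 17.3 to 19.8 and 14.1 to 14.5 CPM. Gzmb was therefore higher in KO FT than in WT FT in both female comparisons and lower in aGC males.

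**Figure D4:**
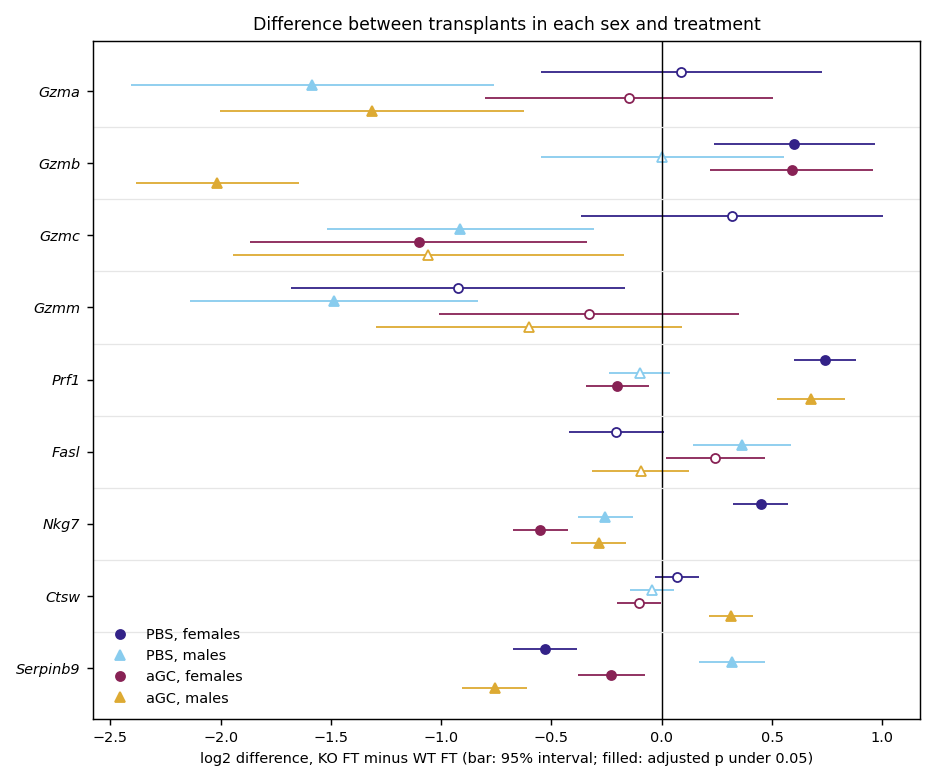
Log2 difference between KO FT and WT FT for 9 members (without Gzmk) in each sex and treatment, with 95% intervals and filled symbols for an adjusted p under 0.05. Gzmb lay near -2.01 in aGC males and near 0.60 in both female comparisons, and Prf1 lay above 0.60 in PBS females and aGC males.

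The response to aGC itself differed between transplants for 3 of 10 members, where 44.5% of all genes were called. All 3 were lower in the KO FT response, with a KO FT minus WT FT difference of -1.01 ± 0.20 for Gzmb (adjusted p = 0.000226), -0.51 ± 0.06 for Nkg7 (adjusted p = 4.98e-07) and -0.39 ± 0.07 for Serpinb9 (adjusted p = 0.000124). For Prf1 (-0.08, 95% interval -0.23 to 0.06), Ctsw (0.09, -0.01 to 0.19), Fasl (-0.0047, -0.22 to 0.22) and Gzma (0.02, -0.51 to 0.54) the difference did not pass. Gzmc (-0.78, adjusted p = 0.0791) and Gzmm (0.74, adjusted p = 0.0781) did not pass either. Without KO FT aGC male replicate 2, Gzmc (-0.94, adjusted p = 0.0486) and Ctsw (0.11, adjusted p = 0.0474) also passed, which made 5. Fits without 1 library held 0.756 to 1.053 times the calls of the main fit over all genes, across the comparisons. With 1 profile per group edgeR called 0 of 10 members, with 0 at an unadjusted p under 0.05 and the lowest adjusted p at 0.935 for Gzmb. That fit also called 0 of all genes, with 628 of the 15953 at an unadjusted p under 0.05. The Gzmb value combines a difference of responses near 0 in females (0.33 and 0.32) with 4.27 and 2.26 in males.

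The members spanned a wide range of levels. Per kilobase of exon, over all libraries, Nkg7 had a mean of 1306 CPM per kb and Ctsw 585, above 99.9% and 99.7% of the tested genes. Fasl followed at 108.9 CPM per kb, Prf1 at 17.5, Serpinb9 at 14.9 and Gzmb at 6.30. Gzma (2.13), Gzmm (1.67), Gzmc (1.41) and Gzmk (0.258) were the lowest, so the granzymes other than Gzmb were measured on few counts per library. For Gzmb, the order of group means began with WT FT aGC males (26.2 ± 3.22 CPM, SD, n = 3), KO FT aGC females (12.4 ± 0.39), KO FT PBS females (9.91 ± 1.01) and WT FT aGC females (8.21 ± 0.38). WT FT PBS females (6.53 ± 0.28) and KO FT aGC males (6.47 ± 0.31) overlapped, as did the PBS males of both transplants (1.37 ± 0.79 in KO FT and 1.34 ± 0.23 in WT FT). For Prf1 the 3 highest groups, WT FT PBS males (64.2 ± 3.07 CPM), KO FT PBS females (61.6 ± 0.95) and KO FT PBS males (59.7 ± 4.18), overlapped, and each later group in the order was apart from its neighbour. For Ctsw the 4 PBS groups overlapped with their neighbours, and the 4 aGC groups followed below them without overlap.

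**Figure D5:**
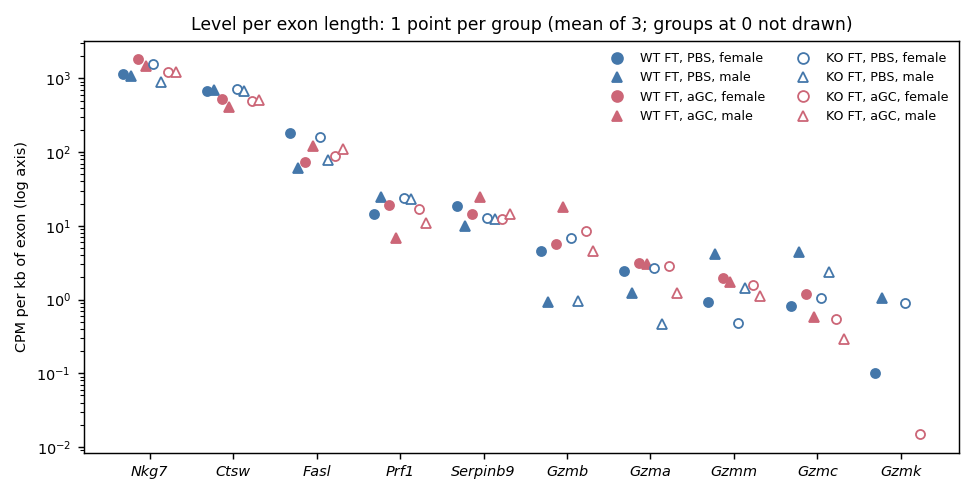
Mean level of each gene in each group per kilobase of exon (CPM per kb, log axis), 1 point per group of 3 libraries, with groups at 0 not drawn. Nkg7 and Ctsw lay highest and Gzmk lowest, and the spread between groups was widest for Gzmb, Gzmc and Gzmk among the granzymes.

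Across the 24 libraries, genes of like pattern were sought for the 6 members with a mean of at least 5 CPM, by the Pearson r of log2 CPM against 9621 genes. These points share groups, depth and the CD8 signal, and the values are a description. Gzmb was most like Cyb5b (r = 0.943), Srxn1 (0.940) and Xcl1 (0.932), a chemokine gene. Prf1 was most like Epsti1 (0.952), Anxa6 (0.951) and Sh3gl1 (0.941), and Fasl was most like Dnajc3 (0.961), Ddx43 (0.932) and Lipo3 (0.929). Ctsw was most like Skap1 (0.987), H2-K2 (0.984) and Shisa5 (0.982). Nkg7 was most like Dctn3 (0.935), Ywhah (0.934) and Nedd8 (0.921), and Serpinb9 was most like Gypc (0.943), Git1 (0.919) and Mrpl32 (0.910). Among the members, Prf1 and Serpinb9 had the most negative r (-0.83), and Prf1 with Ctsw (0.77), Gzma with Nkg7 (0.75) and Gzma with Gzmb (0.74) had the highest.

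Of 58 other genes of the cytotoxic pathway, 47 were tested, and aGC changed 36 in WT FT (20 higher, 16 lower) and 33 in KO FT (19 higher, 14 lower), with the same backgrounds of 68.4% and 58.1%. Among 9 genes of granule storage and processing, 5 rose and 2 fell in WT FT, and 6 rose and 0 fell in KO FT. Srgn, the proteoglycan core that holds granzymes, rose by 1.33 ± 0.05 and 1.10 ± 0.05 on the log2 scale in WT FT and KO FT, and Cst7, an inhibitor of cathepsins in granules, by 0.81 ± 0.04 and 0.73 ± 0.04. Among 11 genes of granule transport and exocytosis, 3 rose and 7 fell in WT FT, and 3 rose and 6 fell in KO FT. Stx11, a membrane fusion protein needed for granule release, rose by 1.94 ± 0.09 and 1.43 ± 0.09. Sytl2, which docks granules, fell by 1.38 ± 0.07 in WT FT, and its response differed between transplants (0.91 ± 0.10, adjusted p = 1.09e-07). Members of both lists thus moved in both directions in WT FT.

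The next lists have the same backgrounds, 68.4% of all genes called in WT FT and 58.1% in KO FT. Among 12 death ligands, receptors and targets, 5 rose and 3 fell in WT FT, and 4 rose and 3 fell in KO FT. Tnf rose by 2.29 ± 0.05 and 2.28 ± 0.05 and Lta by 1.15 ± 0.04 and 1.17 ± 0.04 on the log2 scale, both ligands of the tumor necrosis factor family like Fasl. Tnf went from 28.7 ± 1.47 to 168 ± 10.6 CPM in WT FT males and from 30.9 ± 1.38 to 127 ± 1.84 in WT FT females (SD, n = 3). Bid, a substrate of granzyme B, rose by 1.08 ± 0.05 in WT FT, and its response was lower in KO FT (-0.73 ± 0.07, adjusted p = 1.41e-08). Casp8, the caspase below Fas, fell by 0.61 ± 0.03 in KO FT. Among 11 transcription factors, 6 rose and 3 fell in WT FT, and 5 rose and 3 fell in KO FT. Eomes, a T-box factor of cytotoxic cells, rose by 3.39 ± 0.09 and 3.19 ± 0.09, Irf4 by 3.18 ± 0.07 in both, and Stat5a, which acts below the interleukin-2 receptor, by 1.91 ± 0.05 and 2.04 ± 0.06. Of the 4 tested inhibitors besides Serpinb9, Serpina3g rose by 0.80 ± 0.04 and 0.40 ± 0.04 and Serpinb6a fell by 0.88 ± 0.07 and 0.97 ± 0.07. With 1 profile per group 9 of these 47 genes were still called in WT FT and 5 in KO FT, with Tnf, Lta, Irf4 and Stat5a among them in both. That fit called 1618 and 331 of all genes.

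Between transplants, 25 of the 47 pathway genes differed after PBS (16 higher and 9 lower in KO FT), where 29.4% of all genes were called. After aGC 26 differed (12 higher and 14 lower), where 51.9% of all genes were called, so that count is near the background. After PBS all 6 called storage genes were lower in KO FT, with Ctsh at -3.19 ± 0.28, Cd63 at -1.35 ± 0.24 and Lamp2 at -0.38 ± 0.06, while Rab27a, which brings granules to the membrane, was higher by 0.37 ± 0.06. The summed level of 8 markers of macrophages, monocytes and neutrophils was also lower in KO FT after PBS. It was 39.2 to 47.2 CPM against 65.2 to 67.7 in WT FT females, and 8.27 to 9.53 against 25.3 to 30.9 in males. In KO FT, S100a9 and Cd14 were at 0 in these females and Csf1r in these males. The part of such cells in the storage genes was not tested. After aGC Ap3b1 (0.68 ± 0.05), Sytl2 (0.81 ± 0.07) and Rab27a (0.41 ± 0.06), all of granule transport, were higher in KO FT. Cst7 (-0.30 ± 0.04), Lamp1 (-0.21 ± 0.03) and Bid (-0.55 ± 0.05) were lower. With 1 profile per group edgeR called 0 of the 47 genes in either comparison, with 1 and 3 of them at an unadjusted p under 0.05 after PBS and after aGC. Of all genes 0 were called, with 255 and 1306 at that unadjusted p.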

How the data were processed

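RNA from sorted mLN iNKT cells was sequenced in 24 libraries, 3 for each of 8 groups. Per the labels' protocols, a single-cell RNA kit was used for purification and Nextera XT tagmentation for the libraries, so strand is not kept. The authors deposited whole-number expected counts for each gene, made with kallisto on GRCm38/mm10 per the submitters' processing notes. Not given in the sources used here are kallisto's version, the release of the annotation, how transcripts became genes, and the sort gate. Symbols and positions came from GENCODE M21 for 55154 of 55335 identifiers, and promoters from RefSeq.

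Genes were kept by filterByExpr (minimum count 10, minimum total 15), which left 15953, and counts were scaled by TMM. The edgeR 4.0.16 quasi-likelihood test was fitted on all 24 libraries with 8 group means (16 residual degrees of freedom), with 15 contrasts that weight the sexes equally where they are averaged. Tests were two-sided, Benjamini-Hochberg adjustment ran over the 15953 genes with calls below 0.05, and the SE was taken as the absolute log2 change over the root of the F statistic. The fit was tested on simulated data. Levels are CPM with TMM scaling. The common biological coefficient of variation was 0.108, and replicates differed by more than counting error (chi-square per degree of freedom 4.10 to 16.4 in 24 pairs).

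Alternatives were DESeq2 1.42.0, other size factors, no filter, a fold threshold, a replicate block, 1 profile per group, groups of opposite sex and leaving out each library. R 4.3.3, limma 3.58.1, Python 3.11.15 and matplotlib 3.10.9 were used. The members and lists were chosen with earlier results of these data known. Besides the members, each list and comparison could contribute by name the 3 genes of lowest adjusted p, at most, and at most 2 genes not called.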

Additional observations from a re-analysis of the deposited data

Results flagged for a closer look

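The response to aGC differed between transplants, by the test of the difference itself, for 3 members: Gzmb (-1.01, log2, KO FT minus WT FT), Nkg7 (-0.51) and Serpinb9 (-0.39). The response differed between the sexes of WT FT, by the same kind of test and as males minus females, for Gzmb (3.94), Gzmc (-3.43), Gzmm (-2.36), Prf1 (-2.32), Fasl (2.28), Ctsw (-0.36) and Serpinb9 (1.62). In KO FT it differed between the sexes for Gzma (1.47), Gzmb (1.94), Gzmc (-2.16), Gzmm (-2.06), Prf1 (-0.60), Fasl (1.37), Nkg7 (0.78) and Ctsw (0.17). The Ctsw call in KO FT (adjusted p = 0.0402) was lost in 10 of the 24 fits without 1 library (lowest value 0.13, adjusted p = 0.116, without KO FT aGC male replicate 3) and with a replicate block (adjusted p = 0.0543). The Gzma call in KO FT was lost without KO FT PBS male replicate 2 (0.96, adjusted p = 0.132) or replicate 1 (1.33, adjusted p = 0.0573). The CD8 signal was crossed with sex and treatment in the same way in both transplants, and its part in the sex differences was not tested.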

How the results depend on the processing

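Over the 9 members other than Gzmk, 1 profile per group changed 26 of 45 calls, the fold threshold 55 of 135 and groups of opposite sex 8 of 18 (aGC males against PBS females) and 4 of 18 (aGC females against PBS males). With 1 profile per group (common coefficient of variation 0.424, 3 residual degrees of freedom) edgeR called 0 members in the response to aGC in WT FT and in KO FT, in KO FT minus WT FT after PBS and after aGC, and in the difference of responses, with 4, 1, 0, 0 and 0 at an unadjusted p under 0.05, and 0 to 1618 of all genes. When an absolute log2 change of at least 1 was also required, these comparisons kept 3, 2, 2, 1 and 1 called members. With that threshold the response kept 3 in WT FT females, 2 in KO FT females and 4 in KO FT males, and the difference between sexes in KO FT kept 5. KO FT minus WT FT then kept 1 in PBS females, 3 in PBS males, 1 in aGC females and 2 in aGC males, and 955 to 5294 of all genes were called per comparison. With aGC males against PBS females, Gzmm in WT FT was 0.89 (adjusted p = 0.0258), and in KO FT Gzma was -1.12 (adjusted p = 0.00702), Gzmb -0.61 (adjusted p = 0.00656), Nkg7 -0.39 (adjusted p = 1.05e-05) and Serpinb9b 0.057 (adjusted p = 0.962), each the reverse of its averaged value. With aGC females against PBS males, Fasl in WT FT was 0.30 (adjusted p = 0.019) and Hopx in KO FT 0.34 (adjusted p = 0.00186), also reversed. In these comparisons sex and treatment go together, and the cause was not tested. Ctsw and Prf1 were lower with aGC in all 4 of them.

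Without a filter on low counts, KO FT minus WT FT in aGC females held 3 called members, with the cause not tested. Leaving out single libraries gave 2 to 5 called members for KO FT minus WT FT after PBS, 3 to 5 for the difference of responses and 3 to 6 for KO FT minus WT FT in aGC females, and the other 12 counts stayed within 1.5 times. Over all genes and comparisons, calls ran at 0.974 to 1.131 times the main fit without a filter. They ran at 0.756 to 1.053 times the main fit without 1 library. For the same 9 members, DESeq2 changed 5 of 135 calls, other size factors 1, no filter 16 and leaving out a library 71 of 3240.

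Replicate numbers did not pair the libraries: deviations of same-numbered libraries correlated at -0.23 to 0.44 (median -0.013), with 12 of 84 pairs over 0.1. In 1 of 28 pairs of groups, KO FT PBS females with KO FT aGC males, all 3 correlations exceeded 0.1 (0.34, 0.20 and 0.44). With a replicate block, Gzmc in KO FT females (-0.89, adjusted p = 0.054) and the sex difference of Ctsw in KO FT (0.17, adjusted p = 0.0543) missed the threshold, Gzmm in PBS females (-0.98, adjusted p = 0.04) passed it, and the other 132 calls held. The block left 0.958 to 0.991 times the calls over all genes. Counts limit Gzma, Gzmc, Gzmk and Gzmm most, which stood at 150 counts or fewer in every library.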
